A study of Mus musculus with 2 samples.

Results

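Insulin barcodes that also carried a second islet hormone were examined in single-cell RNA-seq libraries of mouse pancreatic islets, one droplet barcode standing for the RNA captured in one droplet. A barcode was taken as a member when Ins1 and Ins2 together made up at least 40% of its unique molecular identifiers (UMIs, one per captured transcript) and at least 1 of Gcg, Sst, Ppy and Pyy made up at least 2%. Barcodes needed at least 500 detected genes and at most 20% mitochondrial UMIs, and no maximum was set on UMIs. There were 171 members among 8305 insulin barcodes, 9897 kept barcodes and 12846 barcodes in all. The WT library held 60 of 1961 insulin barcodes as members and the HFD library 111 of 6344.

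Both libraries came from islets of male C57/B6 mice aged 16 weeks, with islets of 4 mice pooled into each, and dead cells were removed before capture. From the age of 6 weeks the HFD mice received for 10 weeks a lard-based diet in which fat supplied 60% of kcal, whereas mice of the study outside that diet ate standard chow, and the 2 groups were ordered as separate stocks from one vendor. The study set them side by side to see how diet-induced obesity changes β cells. With 1 library in each group no difference between diets could be tested, and diet, islet preparation and library cannot be told apart. Intervals below are exact 95% binomial, Poisson or conditional intervals that cover counting error only.

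Mouse islets hold several endocrine cell types that are each known by their main hormone. β cells make insulin from Ins1 and Ins2 and lower blood glucose, α cells make glucagon from Gcg and raise it, δ cells make somatostatin from Sst and restrain their neighbours, and γ (PP) cells make pancreatic polypeptide from Ppy. Pyy, which encodes peptide YY, is a close relative of Ppy that is expressed at lower levels in several islet cell types. Barcodes with 2 hormones are of interest because adult endocrine cells can carry more than 1 hormone and because a droplet can also capture more than 1 cell.

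The WT library was deeper per barcode, with a median of 24380 UMIs and 3424 genes in 2600 kept barcodes, against 11322 UMIs and 1999 genes in 7297 kept barcodes of the HFD library. The 2 libraries shared 9 barcode sequences, of which 0 were members in either library. Among insulin barcodes without a second hormone, called insulin-only below, the median was 29997 UMIs in WT and 12308 in HFD. Barcodes with insulin under 20% and a leading second hormone of at least 2% served as the other point of reference and are called single-hormone barcodes. The name is a label, since further second hormones were allowed in them. Single-hormone Sst barcodes, for example, had median Pyy shares of 3.7% in WT and 4.4% in HFD. Insulin reached 17.8% and 18.1% in single-hormone Ppy barcodes.

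The 4 second hormones lie on 3 chromosomes of the GRCm38 assembly. Gcg (ENSMUSG00000000394) spans chromosome 2 from 62474530 to 62483650 and Sst (ENSMUSG00000004366) spans chromosome 16 from 23889573 to 23890958, both on the minus strand. Ppy (ENSMUSG00000017316; chromosome 11, 102099930 to 102101319) and Pyy (ENSMUSG00000017311; chromosome 11, 102106676 to 102107832) are neighbours on the minus strand, separated by 5356 bases. The 100 bases before the RefSeq start of each second hormone are shown because the hormones that occurred together below include this neighbouring pair, and because each hormone marks a class of members. Capitals mark TATAA on either strand, a TATA-box core that was present in 10.7% of 27025 mouse promoters over the same 100 bases, or TGACGTCA, the palindromic cAMP response element, present in 1.23%. Of the 6 hormone genes 5 had an entry in the RefSeq table of build GRCm38.p6, and Ins2 had none.
Gcg (chr2:62483654-62483753, minus strand): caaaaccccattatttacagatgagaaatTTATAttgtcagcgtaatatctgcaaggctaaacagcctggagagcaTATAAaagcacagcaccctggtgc
Sst (chr16:23890845-23890944, minus strand): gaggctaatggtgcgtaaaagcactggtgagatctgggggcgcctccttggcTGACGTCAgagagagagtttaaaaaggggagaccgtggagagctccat
Ppy (chr11:102101320-102101419, minus strand): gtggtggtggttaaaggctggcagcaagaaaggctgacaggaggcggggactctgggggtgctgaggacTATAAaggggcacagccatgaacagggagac
Pyy (chr11:102107833-102107932, minus strand, the first of its starts): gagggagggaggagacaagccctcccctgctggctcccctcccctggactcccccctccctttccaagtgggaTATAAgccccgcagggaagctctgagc
The Gcg, Ppy and Pyy windows held TATAA and the Sst window held the cAMP response element, which describes these letters and was not tied to the levels below.

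Members were chosen by their shares of insulin and second-hormone UMIs, and these shares are given as a description. In WT members, insulin made up 40.2% to 59.8% of UMIs (median 47.8%), and the leading second hormone 2.04% to 10.6% (median 3.56%). In HFD members, insulin made up 40.1% to 57.3% (median 46.5%) and the leading second hormone 2.01% to 15.1% (median 3.11%). No member of either library reached 60% insulin. The members just inside the second-hormone threshold were at 2.04% in WT and 2.01% in HFD, and the insulin barcodes just outside it were at 1.96% and 1.99%. For insulin, the members nearest the threshold were at 40.2% and 40.1%, and the nearest barcodes outside it at 39.89% and 39.95%.

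**Figure D1:**
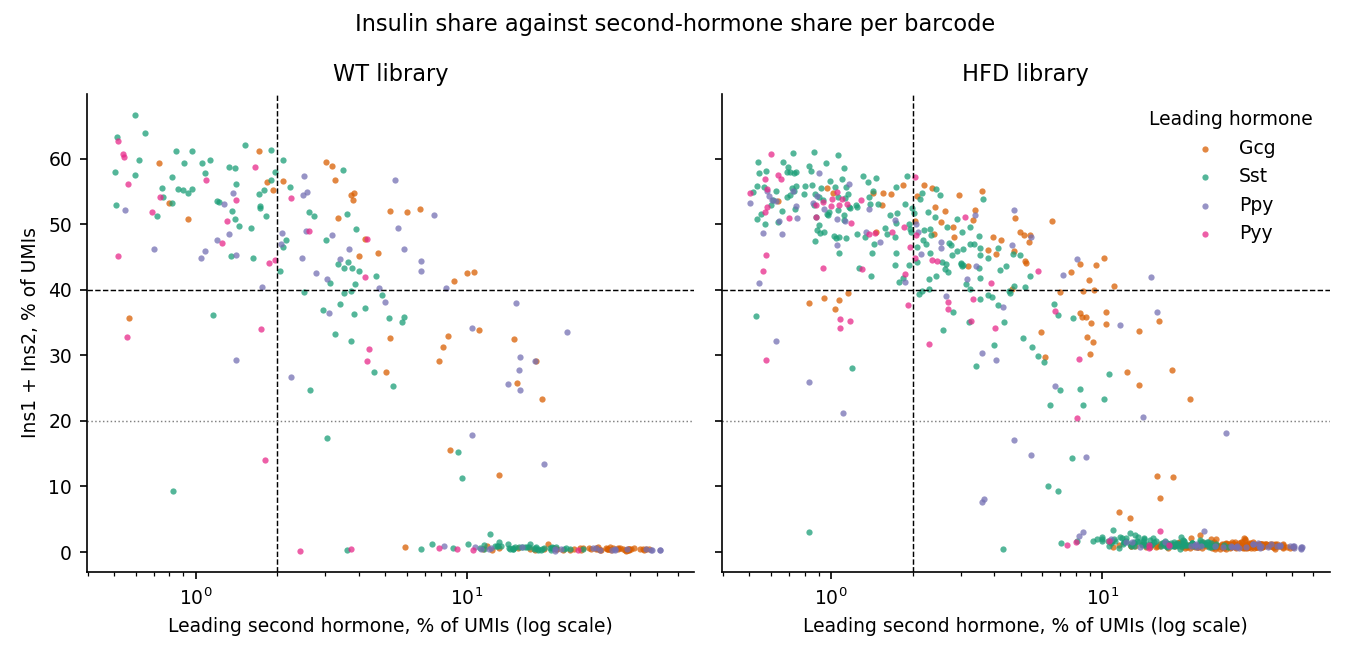
Insulin share (y axis, percent of UMIs) against the share of the leading second hormone (x axis, percent of UMIs, log scale) per barcode, by library and leading hormone. Each point is 1 barcode, dashed lines mark the 40% and 2% thresholds and the dotted line the 20% below which barcodes count as single-hormone. Members lay between 40.1% and 59.8% insulin, with median leading-hormone shares of 3.56% (WT) and 3.11% (HFD) and the highest at 15.1%.

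Gcg, Sst and Ppy led similar numbers of members in WT, whereas Sst led most often in HFD. In WT, Gcg led 17 of 60 members (28.3%), Sst 19 (31.7%), Ppy 20 (33.3%) and Pyy 4 (6.67%). In HFD, Gcg led 35 of 111 members (31.5%), Sst 54 (48.6%), Ppy 14 (12.6%) and Pyy 8 (7.21%). At least 2 second hormones, each at 2% or more, were found in 14 of 60 WT members (23.3%, 13.4% to 36.0%) and 11 of 111 HFD members (9.91%, 5.05% to 17.0%). The pair of Ppy with Pyy accounted for 12 of those 14 WT barcodes but 3 of the 11 HFD barcodes. Gcg with Sst occurred in 1 barcode of each library, and Gcg with Ppy in 0.

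Over all depths together, members were a smaller share of insulin barcodes in HFD. They made up 3.06% of them in WT (2.34% to 3.92%) and 1.75% in HFD (1.44% to 2.10%), a ratio of 0.572 (0.414 to 0.797). By class the ratio was 0.216 for Ppy-led members (0.101 to 0.450), 0.879 for Sst-led (0.513 to 1.57), 0.636 for Gcg-led (0.347 to 1.21) and 0.618 for Pyy-led members (0.166 to 2.81). These intervals compare the counts of 2 libraries and not the diets. The order of the libraries changed with depth. Members were a larger share in HFD at over 5000 to 10000 UMIs (0% in WT, 1.13% in HFD) and at over 15000 to 30000 (1.62% and 2.54%). They were a larger share in WT at up to 5000 UMIs (4% and 0.513%) and at over 10000 to 15000 (2.70% and 1.63%). The same held at over 30000 to 60000 (4.30% and 1.69%). The libraries differed in depth, and its part in the difference was not tested.

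Gcg-led members stood above insulin-only barcodes in UMIs in both libraries. In WT they ranged from 4034 to 69095 UMIs with a median of 47612, which was 1.59 times the insulin-only median, and 13 of 17 lay above it. In HFD they ranged from 9787 to 40911 with a median of 18232, which was 1.48 times, and 32 of 35 lay above it. The medians came to 1.16 times (WT) and 1.08 times (HFD) the sum of the insulin-only median and the median of single-hormone Gcg barcodes, which was 11014 UMIs in WT and 4489 in HFD.

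Sst-led and Pyy-led members changed side between the libraries, and Ppy-led members were above in both. Sst-led members ranged from 19907 to 61663 UMIs in WT, and their median of 37325 was 1.24 times the insulin-only median. In HFD they ranged from 1563 to 25657, with a median of 11766 that was 0.956 times the insulin-only median, and 25 of 54 lay above it. Single-hormone Sst barcodes, the other reference, had medians of 7260 and 2834 UMIs, and the Sst-led medians were 1.002 and 0.777 times the sum of both references. Ppy-led members were at 1.13 times in WT (median 33786, range 1882 to 77156, 11 of 20 above) and at 1.58 times in HFD (median 19402, range 8921 to 31865, 12 of 14 above). The few Pyy-led members had medians of 48134 UMIs in WT, or 1.60 times, and 12132 in HFD, or 0.986 times. Against the sum of both references, Ppy-led members were at 0.790 and 1.11 times and Pyy-led members at 1.24 and 0.780 times. Over all members the ratio was 1.28 in WT and 1.24 in HFD, and with at most 15000 UMIs per barcode, which left 6 WT and 54 HFD members, it was 0.667 and 1.12.

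**Figure D2:**
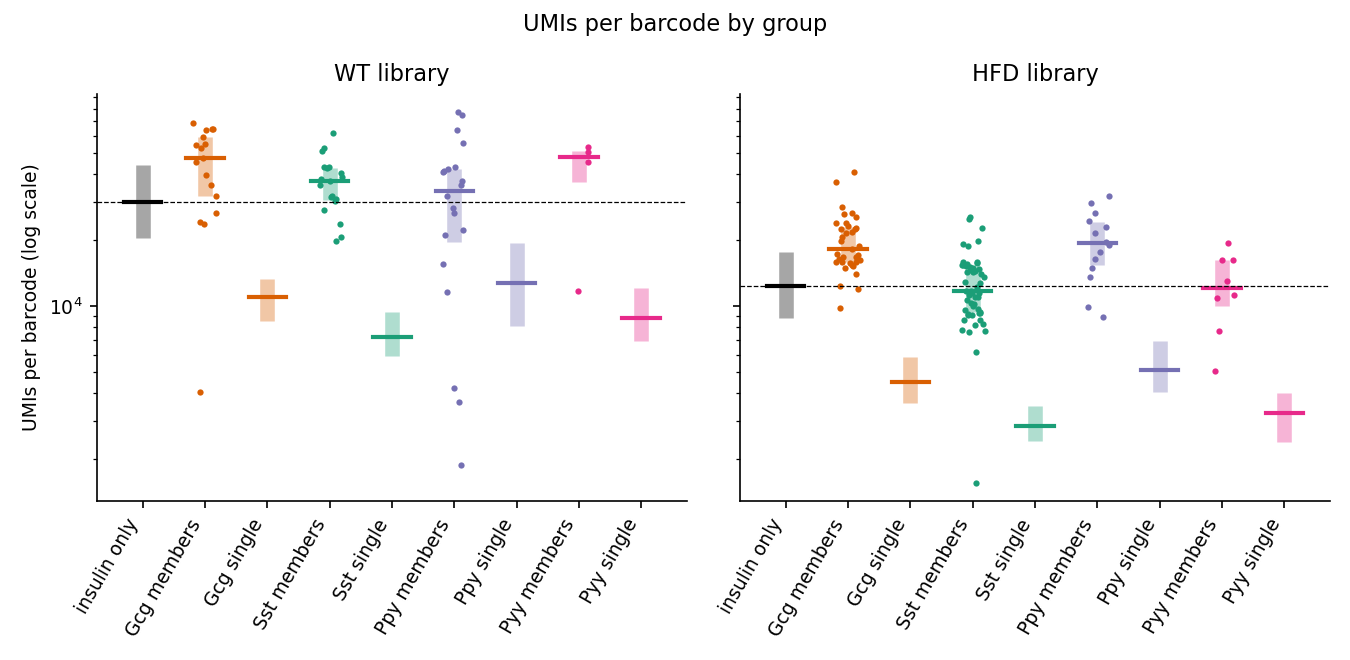
UMIs per barcode (y axis, log scale) of members by leading hormone beside insulin-only and single-hormone barcodes in each library; points are members, short bars medians, shaded bars the middle quartiles and the dashed line the insulin-only median. Gcg-led medians of 47612 (WT) and 18232 (HFD) sat above the insulin-only medians of 29997 and 12308, whereas the Sst-led median in HFD was 11766.

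The share of insulin barcodes that were members varied with depth and did not rise steadily. In WT it was 4 of 100 barcodes with up to 5000 UMIs (4%), 0 of 53 with over 5000 to 10000 and 2 of 74 with over 10000 to 15000 (2.70%). It was 1.62% of 742 WT barcodes with over 15000 to 30000 UMIs, 4.30% of 791 with over 30000 to 60000 and 3.98% of 201 above. In HFD it was 0.513% of 195 barcodes with up to 5000 UMIs, then 1.13% of 1943, 1.63% of 1905 and 2.54% of 2123, and 1.69% of the 178 with over 30000. Gcg-led members made up 0%, 0.0515%, 0.210%, 1.32% and 1.12% of these HFD bins, and Sst-led members 0.513%, 0.875%, 1.15%, 0.659% and 0%.

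The UMIs were then divided into insulin, the leading hormone and all other genes. The median insulin UMI count of Gcg-led members was 1.38 times that of insulin-only barcodes in WT and 1.22 times in HFD. For Sst-led members it was 0.900 and 0.793 times. The leading hormone was set against single-hormone barcodes in the same way, and the median Gcg count of Gcg-led members was 0.672 and 0.611 times theirs. Sst-led members carried 1.07 and 0.732 times the Sst UMIs of single-hormone Sst barcodes, whereas Ppy-led members carried 0.234 and 0.374 times the Ppy UMIs of single-hormone Ppy barcodes. UMIs of all other genes were above the insulin-only median in every class, at 1.90 times for Gcg-led, 1.49 for Sst-led and 1.27 for Ppy-led members in WT and at 1.71, 1.14 and 1.76 times in HFD.

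Members had more detected genes than insulin-only barcodes at an equal total of UMIs, of which insulin, part of the rule, took less (medians 47.8% and 46.5% in members, 60.7% and 57.3% in insulin-only barcodes). Thinned to 2000 UMIs per barcode, the median was 611 genes in WT members and 607 in HFD members, against 508 and 528 in insulin-only barcodes. Single-hormone barcodes reached 800 and 726 genes for Gcg and 898 and 889 for Sst, so members lay between both references. Mitochondrial transcripts made up a median of 3.29% of UMIs in WT members and 2.96% in HFD members. The ratio of Ins1 to Ins2 UMIs was 0.378 in both libraries, beside 0.393 and 0.382 in insulin-only barcodes.

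Members formed the upper end of a range of insulin shares that differed by class. Of 254 HFD barcodes with Gcg as leading second hormone at 2% or more, 191 had under 2% insulin, 15 had 30% to 40%, 22 had 40% to 50% and 13 had 50% to 60%, whereas the ranges of 2% to 5%, 5% to 10%, 10% to 20% and 20% to 30% held 3, 3, 2 and 5. In WT the 82 Gcg barcodes fell into 53 under 2% insulin, 2 between 10% and 20%, 10 between 20% and 40%, and 17 above. Sst barcodes were spread more toward intermediate insulin, with 16 of 83 in WT and 27 of 189 in HFD between 20% and 40%. Ppy barcodes had 11 of 54 and 8 of 69 in that range. From 60% insulin upward, 0 barcodes of either library had a second hormone at 2%.

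Seen from the insulin barcodes, each second hormone also occurred below the threshold, Gcg in the fewest barcodes. In WT 1932 of 1961 insulin barcodes had Gcg under 0.1%, and 5, 4 and 3 lay between 0.1% and 0.5%, 0.5% and 1%, and 1% and 2%, below the 17 members that it led. In HFD 6289 of 6344 had Gcg under 0.1%, and these ranges held 6, 4 and 10 beside the 35 members that it led. For Sst, 24 WT barcodes lay between 0.1% and 0.5%, 31 between 0.5% and 1%, 32 between 1% and 2%, and 20 between 2% and 5%. In HFD the same Sst ranges held 54, 69, 57 and 54 barcodes. For Ppy the counts fell with rising share, with 59, 23, 20 and 16 barcodes in WT and 116, 67, 29 and 12 in HFD. Pyy followed with 77, 41, 34 and 14 in WT and 144, 99, 66 and 14 in HFD.

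Second-hormone transcripts were low in cells of another lineage. In endothelial barcodes, which line vessels and make none of these hormones, the median share of each second hormone was 0%. Summed over these barcodes Gcg reached 0.00399% of UMIs in WT and 0.0120% in HFD, far below the 2% that chose the members. Insulin was higher there, at a median of 0.453% of UMIs in WT and 1.02% in HFD. In macrophage barcodes its median was 0.624% and 1.60%.

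The minor hormones of members were compared with those of single-hormone barcodes, as UMIs per 100 UMIs of the leading hormone. Gcg-led members carried 9.94 Pyy UMIs per 100 Gcg UMIs in WT, beside 9.95 in single-hormone Gcg barcodes, and 12.5 beside 11.8 in HFD. Sst-led members carried 35.6 Pyy UMIs per 100 Sst UMIs in WT and 34.6 in HFD, beside 25.1 and 28.8. Every Sst-led and Ppy-led member had Pyy at 0.1% or more of its UMIs, namely 19 of 19 and 20 of 20 in WT and 54 of 54 and 14 of 14 in HFD. So did every single-hormone Sst barcode (48 of 48 and 108 of 108) and Ppy barcode (23 of 23 and 47 of 47). Among Gcg-led members 12 of 17 and 29 of 35 had Pyy at that share, against 49 of 55 and 183 of 199 single-hormone Gcg barcodes. For Ppy-led members the Pyy count was 46.8 and 37.5 per 100 Ppy UMIs, beside 40.5 and 31.1 in single-hormone Ppy barcodes. Pyy-led members in turn had a median Ppy share of 2.02% in WT and 0.811% in HFD. Ppy was at 0.1% or more in 3 of 4 and 7 of 8 of them, against 6 of 6 and 6 of 7 single-hormone Pyy barcodes.

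Gcg varied more between members and references. Sst-led members carried 0.128 Gcg UMIs per 100 Sst UMIs in WT, beside 1.02 in single-hormone Sst barcodes, but 2.43 beside 0.40 in HFD. Pyy-led members carried 6.07 beside 9.32 per 100 Pyy UMIs in WT and 0.165 beside 41.8 in HFD. These pooled values rested on few barcodes. Only 0 of 19 and 2 of 54 Sst-led members had Gcg at 0.1% or more, against 2 of 48 and 1 of 108 single-hormone Sst barcodes. For Pyy-led members it was 1 of 4 and 0 of 8, against 2 of 6 and 3 of 7. Ppy-led members carried 0.303 Gcg UMIs per 100 Ppy UMIs in WT and 1.93 in HFD, whereas single-hormone Ppy barcodes carried 8.21 and 6.42. Gcg at 0.1% or more was seen in 0 of 20 and 1 of 14 Ppy-led members, against 6 of 23 and 12 of 47 single-hormone Ppy barcodes. Sst was higher in the members than in these references, at 10.0 and 8.02 against 3.37 and 5.38 per 100 Ppy UMIs, and reached 0.1% in 7 of 20 and 7 of 14 Ppy-led members.

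**Figure D3:**
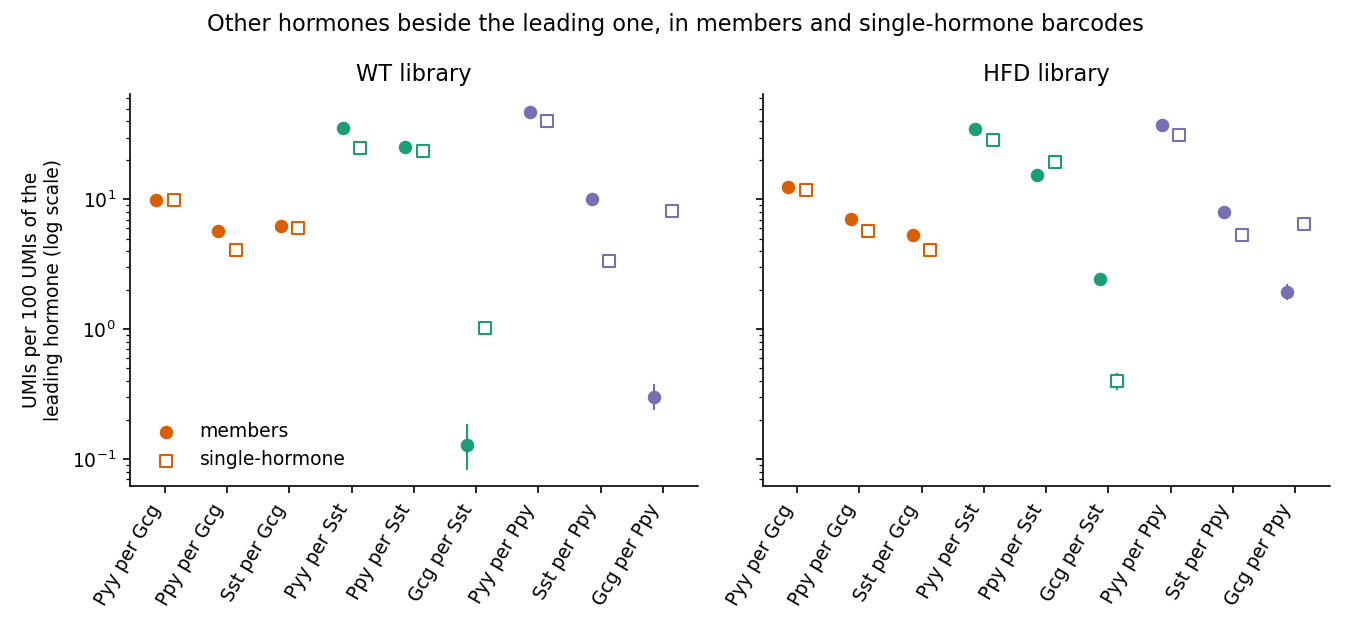
UMIs of each other hormone per 100 UMIs of the leading hormone (y axis, log scale) in members and in single-hormone barcodes, by class and library, with exact 95% intervals for counting error. Gcg-led members and Gcg single-hormone barcodes nearly coincide for Pyy at 9.94 and 9.95 in WT, whereas Gcg in Ppy-led members (0.303) lies below its level in single-hormone Ppy barcodes (8.21).

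Genes that separate the single-hormone classes were used to place the members between their references. For each class, genes other than hormones were taken that had at least 100 CPM (UMIs of a gene scaled to one common total per group) in one reference and at least 8 times the level of the other in both libraries. The relative level of a gene is 0 at the reference where it is low and 1 at the reference where it is high. Gcg-led members had a median relative level of 0.181 over the 24 genes of Gcg barcodes in WT and 0.175 in HFD, and of 0.805 and 0.780 over the 12 genes of insulin barcodes. Gcg itself was at 0.163 and 0.141 and insulin at 0.846 and 0.853. The thresholds that chose the members bound these hormone levels, which are set beside the class genes as a description. Scaled to UMIs other than hormone and mitochondrial genes, the Gcg class genes were at 0.257 and 0.231 and Gcg at 0.253 and 0.194. Sst-led members were at 0.211 and 0.198 over the 32 genes of Sst barcodes, beside 0.20 and 0.18 for Sst. Scaled to UMIs other than hormone and mitochondrial genes, the Sst class genes were at 0.336 and 0.326 and Sst at 0.320 and 0.282, and with insulin at 50% or more the class genes were at 0.135 and 0.104. Over the 6 insulin genes members were at 0.791 and 0.811. All 24 genes of the Gcg class and all 32 of the Sst class were above 0 in both libraries.

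Ppy-led members were less uniform. The 7 genes of Ppy barcodes had a median relative level of 0.278 in WT and 0.129 in HFD, beside 0.146 and 0.159 for Ppy. The 10 insulin genes were at 0.664 in WT and 0.741 in HFD, below insulin itself at 0.783 and 0.809.

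**Figure D4:**
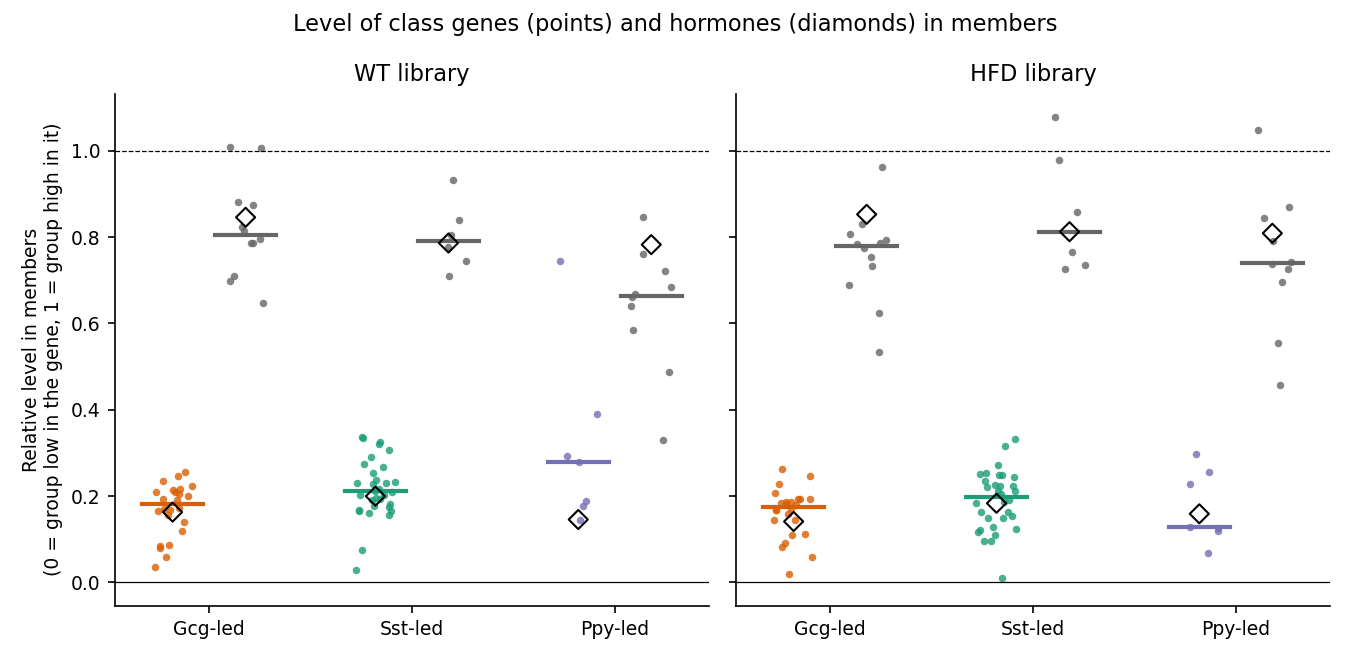
Relative level (y axis, 0 at the low reference and 1 at the high reference) of class genes in Gcg-led, Sst-led and Ppy-led members of each library; each point is a gene, short bars are medians and open diamonds are the hormones. Genes of the second class cluster near 0.2 and those of insulin barcodes near 0.8 for Gcg-led and Sst-led members, and the Ppy-led genes are more scattered, from 0.0670 to 0.744.

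Over single barcodes, the share of the leading hormone, which chose the members and starts at 2%, is set beside the summed level of its class genes as a description. In Gcg-led members Pearson r was 0.778 and Spearman rho 0.806 over 17 WT barcodes, and 0.589 and 0.657 over 35 HFD barcodes. In Sst-led members the coefficients were 0.572 and 0.663 over 19 WT barcodes and 0.415 and 0.415 over 54 HFD barcodes. In Ppy-led members they were close to 0, at -0.20 and 0.0045 over 20 WT barcodes and at -0.11 and -0.020 over 14 HFD barcodes. These barcodes share their library and their total of UMIs, and the Ppy-led sums rest on a median of 26 class-gene UMIs per WT barcode and 15.5 in HFD.

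The same class genes were present below the threshold. The 42 WT and 100 HFD insulin barcodes with Sst leading at 0.5% to 2% had Sst class genes at 10.9% and 8.81% of the way to single-hormone Sst barcodes, and Sst itself at 7.0% and 6.35%. Their median depth was 53544 UMIs in WT and 20364 in HFD, above that of Sst-led members. For Ppy at 0.1% to 0.5%, 13 barcodes in each library had class genes at 9.09% and 9.13%, while Ppy was at 0.923% and 0.659%.

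Gcg-led members carried the α-cell program at a fraction of its level in single-hormone Gcg barcodes. Of the 7 α-cell markers tested in each library 5 were at least 2 times higher than in insulin-only barcodes, while 9.72% of all genes tested in WT and 8.37% in HFD passed this fold, and 0 of the 7 were at 0.5 times or lower, a level that 14.7% and 19.5% of all genes reached. Irx2, a transcription factor of α cells, was at 11.8 CPM in WT (9 UMIs) and 7.11 in HFD (5 UMIs), against 0.584 and 0.414 in insulin-only and 68.1 and 65.4 in single-hormone Gcg barcodes. Slc38a5, an amino acid transporter of α cells, was at 14.4 CPM in WT (11 UMIs) and 18.5 in HFD (13 UMIs), beside 1.06 and 2.04 in insulin-only barcodes. Ttr, the thyroid hormone carrier transthyretin, was at 5163 and 5190 CPM, 6.41 and 3.23 times insulin-only. Peg3, an imprinted gene, was at 1.06 and 0.988 times, so the markers did not all move. In Sst-led members 3 of 7 α-cell markers were raised in each library, against 14.6% and 13.6% of all genes. There 1 and 0 were lowered, against 13.1% and 15.6%. In Ppy-led members 3 and 0 of 7 were raised, against 11.9% and 11.6%, and 1 and 2 lowered, against 15% and 30.9%. Median ratios of the list were 6.41 and 3.23 in Gcg-led, 1.76 and 1.24 in Sst-led and 1.11 and 1.01 in Ppy-led members.

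The wider class genes of Gcg-led members ranged around the same fraction. The genes with the highest mean relative level were Hist3h2ba, a histone gene, at 0.243, Ctsz, a lysosomal protease, at 0.232 and Cryba2, a crystallin, at 0.211. The lowest were Upp1, uridine phosphorylase, at 0.0728, Gria2, a glutamate receptor subunit, at 0.112 and Smarca1, a chromatin remodeller, at 0.113. Among the insulin genes G6pc2, the islet glucose-6-phosphatase, was highest at 0.923, followed by the protease gene Prss53 at 0.882 and Ero1lb, which oxidises proinsulin, at 0.869. Slc2a2, the glucose transporter GLUT2, was lowest at 0.591, with Ppp1r1a, a phosphatase inhibitor, at 0.705.

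Ranked against insulin-only barcodes, the genes most raised in Gcg-led members were also high in single-hormone Gcg barcodes. Rbp4, retinol-binding protein, was 10.8 times higher in WT and 12.4 in HFD, and Gpx3, a secreted glutathione peroxidase, 16.2 and 8.79 times. Gnas, the stimulatory G protein, was 2.44 and 1.78 times higher and Atf3, a stress-induced transcription factor, 1.71 and 1.78 times. The genes most lowered, beside Slc2a2 at 0.653 and 0.537 times, were Il1r1 (interleukin-1 receptor, 0.718 and 0.633), the nuclear RNA Malat1 (0.610 and 0.737), the metallothionein Mt2 (0.488 and 0.749) and the palmitoyltransferase Zdhhc2 (0.752 in both libraries).

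Lineage factors of both types were found in the same barcodes. At least 1 UMI of Irx1 or Irx2, which are made by α cells, was present in 13 of 17 Gcg-led members in WT (76.5%) and 8 of 35 in HFD (22.9%), against 41 of 55 (74.5%) and 85 of 199 (42.7%) single-hormone Gcg barcodes. Insulin-only barcodes had one in 1.89% and 0.626%. Nkx6-1, a β-cell factor that represses the α-cell program, was present together with one of them in 12 of 17 and 6 of 35 Gcg-led members, in 6 of 55 and 8 of 199 single-hormone Gcg barcodes, and in 1.74% and 0.449% of insulin-only barcodes. Depth differs between these groups, and thinned to 2000 UMIs Irx1 or Irx2 was seen in 6.27% and 3.47% of Gcg-led members, 29.6% and 22.3% of single-hormone Gcg barcodes and 0.140% and 0.101% of insulin-only barcodes. In endothelial barcodes, which should lack them, they were seen in 1 of 169 and 1 of 156, at medians of 6800 and 3242 UMIs.

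**Figure D5:**
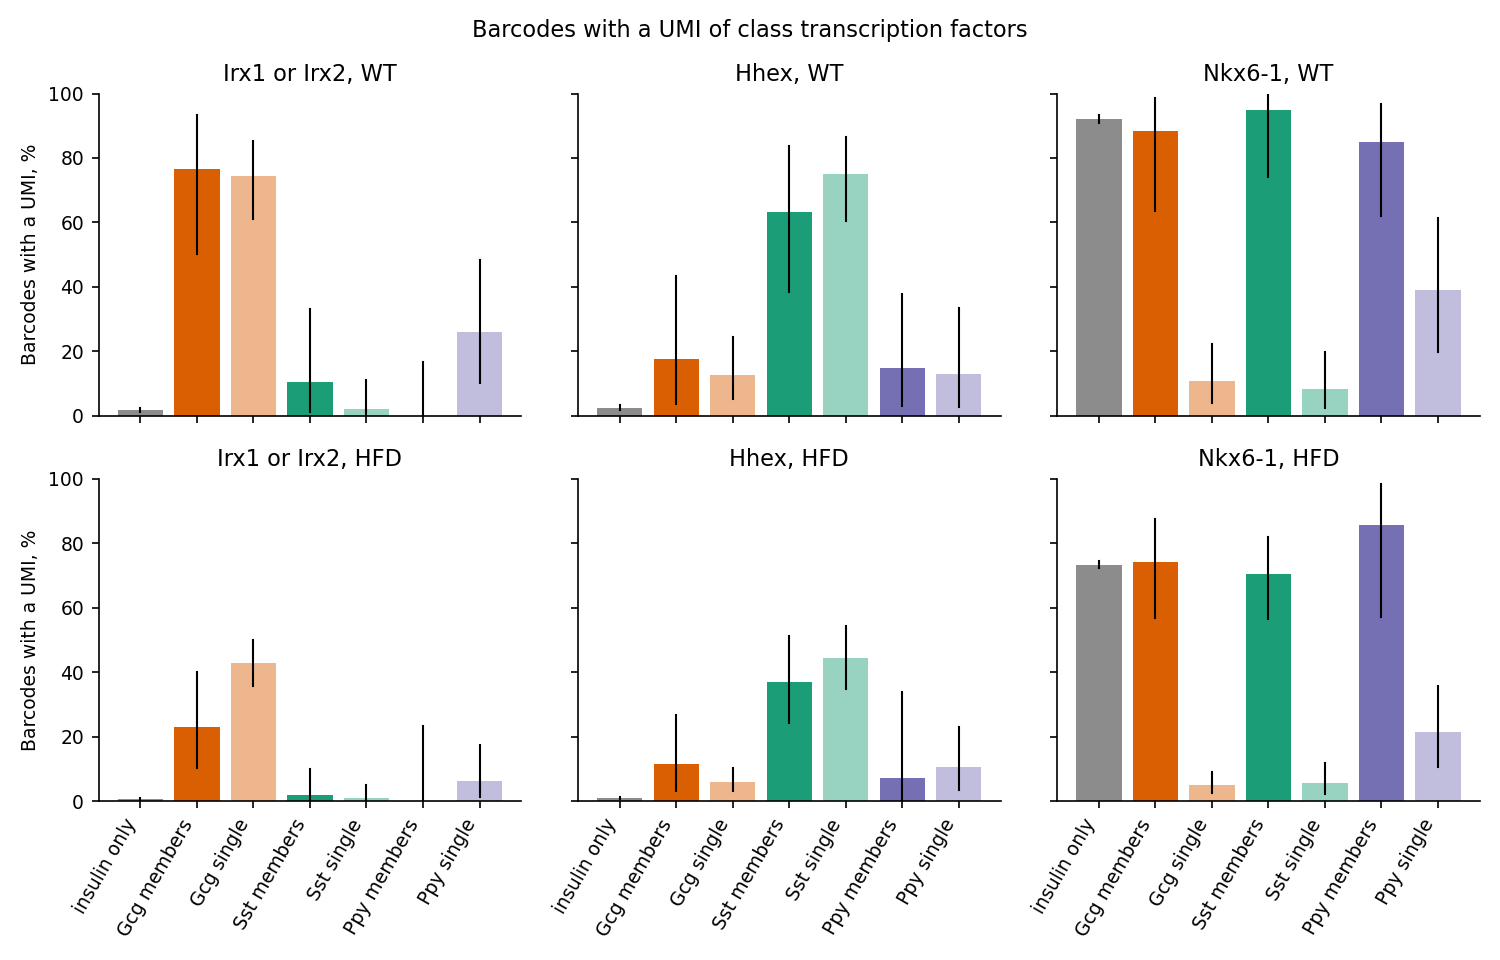
Percent of barcodes with at least 1 UMI of Irx1 or Irx2, of Hhex and of Nkx6-1 (y axis) in insulin-only barcodes, members and single-hormone barcodes (x axis) of each library. Bars are shares and lines exact 95% binomial intervals. Irx1 or Irx2 was present in 76.5% of WT Gcg-led members but 0% of Ppy-led members, and Hhex in 63.2% of WT Sst-led members.

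Sst-led members carried δ-cell genes at a level between both references. Of the δ-cell markers, 4 of 6 tested in WT and 3 of 5 in HFD were at least 2 times higher than in insulin-only barcodes, against 14.6% and 13.6% of all genes tested, and 0 were at 0.5 times or lower, against 13.1% and 15.6%. Hhex, the transcription factor that maintains δ cells, was at 47.0 CPM in WT and 45.3 in HFD, against 1.22 and 0.852 in insulin-only and 277 and 199 in single-hormone Sst barcodes. Rbp4 was at 1184 and 1444 CPM, 31.2 and 55.7 times insulin-only. Ptprz1, a receptor phosphatase, was at 17.1 and 17.5 CPM (12 UMIs in each library), 41.6 and 49.1 times insulin-only. The δ-cell markers summed to 1278 and 1545 CPM, beside 56.4 and 46.6 in insulin-only barcodes. Raised counts were similar in other classes. In Gcg-led members 2 of 5 and 3 of 5 were raised, against 9.72% and 8.37% of all genes. There 1 in each library was lowered, against 14.7% and 19.5%. In Ppy-led members 4 of 5 and 3 of 5 were raised, against 11.9% and 11.6%, and 0 were lowered, against 15% and 30.9%. Median ratios of the list were 32.5 and 49.1 in Sst-led, 1.67 and 3.99 in Gcg-led and 7.17 and 4.23 in Ppy-led members.

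Hhex was detected in 12 of 19 Sst-led members in WT (63.2%) and 20 of 54 in HFD (37.0%), beside 75% and 44.4% of single-hormone Sst barcodes. Insulin-only barcodes had it in 2.47% and 0.882%. Endothelial cells express Hhex themselves, and their barcodes had it in 33.1% and 9.62%, so they are no negative reference for it. Hhex occurred with Nkx6-1 in 11 of 19 and 15 of 54 Sst-led members against 2 of 48 and 2 of 108 single-hormone Sst barcodes. In insulin-only barcodes the 2 occurred together in 2.42% and 0.738%. Single-hormone Sst barcodes had fewer UMIs (medians 7260 and 2834, against 37325 and 11766 in Sst-led members), and this joint count was not thinned. Thinned to 2000 UMIs, Hhex was seen in 9.09% and 8.75% of Sst-led members and 42.2% and 32.7% of single-hormone Sst barcodes.

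Of the progenitor and immaturity list, 5 of 7 genes tested in WT and 2 of 5 in HFD were at least 2 times higher in Sst-led members than in insulin-only barcodes, against 14.6% and 13.6% of all genes, and 1 in each library was at 0.5 times or lower. The median ratio of the list was 3.67 in WT and 1.02 in HFD. Other classes had similar counts. In Gcg-led members 5 of 7 and 2 of 5 were raised, against 9.72% and 8.37% of all genes, and 1 and 0 were lowered. In Ppy-led members 4 of 7 and 2 of 5 were raised, against 11.9% and 11.6%, and 2 and 3 were lowered, against 15% and 30.9%. Neurog3, the transcription factor that starts endocrine development, was higher in Sst-led members of both libraries. It was detected in 8 of 19 WT and 8 of 54 HFD Sst-led members, in 8 of 48 and 8 of 108 single-hormone Sst barcodes, and in 1.42% and 0.449% of insulin-only barcodes. Its level was 18.5 CPM in WT (13 UMIs) and 11.7 in HFD (8 UMIs), below the 29.95 and 22.75 CPM of single-hormone Sst barcodes. Insulin-only barcodes were at 0.600 and 0.334 CPM. Fev, a transcription factor of endocrine progenitors, had 7 and 4 UMIs in Sst-led members, at 9.96 and 5.85 CPM beside 27.5 and 17.1 in single-hormone Sst barcodes. Cd81, a tetraspanin linked to immature β cells, was 3.67 and 6.14 times higher than in insulin-only barcodes, at 78.3 and 90.6 CPM, below the 270 and 316 CPM of single-hormone Sst barcodes.

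Among the wider Sst class genes the highest mean relative levels were those of Fabp5, a fatty acid-binding protein, at 0.328, Ly6h, a surface protein, at 0.296 and Basp1, a membrane-bound growth-cone protein, at 0.289. The lowest were Cela1, an elastase, at 0.0430, Tnfrsf12a, a TNF receptor family member, at 0.0744 and Stxbp5l, a syntaxin-binding protein, at 0.145. Raised most beside Rbp4 against insulin-only barcodes were Gpx3 (9.76 and 5.24 times), Fam159b (4.51 and 7.64), Auts2 (3.31 and 3.62) and Clu, or clusterin (4.21 and 3.12). Lowered most were Ttr (0.787 and 0.702), the G protein subunit Gng12 (0.755 and 0.795), the stress gene Nupr1 (0.652 and 0.802), the prolactin receptor Prlr (0.799 and 0.807) and Mafa (0.813 and 0.773).

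In Ppy-led members the lineage factors were set against those of single-hormone Ppy barcodes. Irx1 or Irx2 was present in 0 of 20 WT members (up to 16.8%) and 0 of 14 HFD members (up to 23.2%). Single-hormone Ppy barcodes had one in 6 of 23 (26.1%, 10.2% to 48.4%) and 3 of 47 (6.38%, 1.34% to 17.5%). The intervals of members and single-hormone barcodes overlapped in both libraries. Thinned to 2000 UMIs, Irx1 or Irx2 was seen in 4.92% and 2.48% of single-hormone Ppy barcodes. Nkx6-1 was present in 17 of 20 and 12 of 14 Ppy-led members and in 9 of 23 and 10 of 47 single-hormone Ppy barcodes. Insulin-only barcodes had it in 92.1% and 73.3%. Thinned to 2000 UMIs, it was seen in 22.3% and 18.2% of Ppy-led members. The thinned values were 11.5% and 8.04% in single-hormone Ppy and 27.6% and 21.3% in insulin-only barcodes.

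The class genes of Ppy-led members were led by Rbp4, at a mean relative level of 0.521, with Folr1, a folate receptor, at 0.323 and Cd81 at 0.206. Lower ones included Tspan8, a tetraspanin, at 0.158, Calb1, a calcium-binding protein, at 0.173 and Gpx3 at 0.186. Rbp4 was carried by a few barcodes, since 239 of 261 WT UMIs and 103 of 109 HFD UMIs lay in the 7 members of each library with Sst at 0.1% or more. It was at 709 CPM in those 7 WT barcodes and 64.1 CPM in the other 13, and at 722 and 44.4 CPM in HFD. Gcg-led members showed the same division, at 762 against 208 CPM in WT and 821 against 160 CPM in HFD.

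Against insulin-only barcodes, 11.9% of all genes tested in WT and 11.6% in HFD were at least 2 times higher in Ppy-led members. At 0.5 times or lower were 15% and 30.9%, the last share resting on only 14 barcodes. These shares include genes with few UMIs in members. With at least 10 UMIs seen or expected in members, 6.06% and 4.49% were at least 2 times higher and 0.82% and 1.13% at 0.5 times or lower. Beside Rbp4 (10.1 and 15.1 times) and Gpx3 (7.37 and 5.16), the most raised were Actg1, or γ-actin (2.08 and 2.06), Pnrc1, a nuclear receptor coactivator (1.68 and 1.96), and Jun, an immediate early factor (1.60 and 2.05). The most lowered were Slc2a2 (0.494 and 0.583), Ucn3, the urocortin of mature β cells (0.665 and 0.458), Mafa, a factor of mature β cells (0.584 and 0.722), Golga4 (0.703 and 0.731) and mt-Nd4, a mitochondrial complex I subunit (0.711 and 0.738). Slc2a2, Nupr1 and Ucn3 also had the lowest relative levels of the insulin genes in these members, at 0.521, 0.537 and 0.549.

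β-cell genes were mostly within 2 times of their insulin-only level. Of 12 β-cell markers tested, 0 were at least 2 times higher in any class, and those at 0.5 times or lower numbered 0 and 1 in Gcg-led members (WT and HFD), 0 and 1 in Sst-led members, and 1 and 2 in Ppy-led members. Over all genes the shares at 0.5 times or lower were 14.7% and 19.5%, 13.1% and 15.6%, and 15% and 30.9%. These shares include genes with few UMIs in members. With at least 10 UMIs seen or expected in members they were 0.82% and 1.07%, 0.40% and 0.46%, and 0.82% and 1.13%. The HFD counts of β-cell markers under that filter were 0, 0 and 1. Iapp, the peptide secreted with insulin, was at 0.928 and 0.967 times insulin-only in Gcg-led, 0.871 and 0.798 in Sst-led, and 1.02 and 0.965 in Ppy-led members. Pdx1, a β-cell and δ-cell factor, was at 0.881 and 0.737 times in Gcg-led, 1.02 and 1.04 in Sst-led, and 0.888 and 0.829 in Ppy-led members. Nkx6-1 was at 0.837 and 0.719, 0.874 and 0.964, and 0.823 and 0.925 times. Mafa was below its insulin-only level in every class, from 0.584 times in WT Ppy-led to 0.813 in WT Sst-led members. The median over the 12 markers was below 1 in every class and library under all 3 scalings tried, between 0.611 and 0.879 times.

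Genes shared by all endocrine cells were close to the insulin-only level. Their median ratio in Gcg-led members was 1.12 in WT and 1.04 in HFD when scaled to all UMIs, and 0.996 and 0.960 when scaled to UMIs other than hormone and mitochondrial genes. In Sst-led members it was 1.24 and 1.12, and 1.02 and 0.973 by the other scaling, but 0.946 and 0.879 with size factors. In Ppy-led members it was above 1 in WT (1.28, 1.07 and 1.03) and below 1 in HFD (0.996, 0.914 and 0.845) under all 3 scalings. Of 12 tested, 0 passed the fold in either direction, except 2 that were at least 2 times higher in WT Sst-led members. Beside them, 14.6% of all genes tested did so, and 8.75% of those with at least 10 UMIs seen or expected in members. The 2 were the granule protein gene Chgb (2.37 times) and the transcription factor gene Isl1 (2.12 times). In HFD Sst-led members these genes were at 1.89 and 1.58 times. Cck, which encodes cholecystokinin, had 1 UMI over all WT members (0.433 CPM) and 11 UMIs over all HFD members, of which 9 lay in 3 of 35 Gcg-led and 2 in 2 of 54 Sst-led barcodes. Insulin-only barcodes had a Cck UMI in 0.105% (WT) and 0.802% (HFD). Thinned to 2000 UMIs, Cck was seen in 2.19% of Gcg-led, 0.580% of Sst-led and 0.180% of insulin-only HFD barcodes. The values of members rest on these few barcodes. Aldh1a3, an enzyme linked to β-cell dedifferentiation, was at 3.47 CPM in WT members and 14.2 in HFD members, beside 0.694 and 15.5 in insulin-only barcodes.

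Few genes departed from both references at once by 2 times or more, and smaller departures were not counted. Malat1 in Gcg-led members, for example, was at 2304 CPM in WT and 3303 in HFD. That was below the 3775 and 4479 of insulin-only and the 12563 and 12044 of single-hormone Gcg barcodes. Of 1809 genes compared in Gcg-led members, 2235 in Sst-led and 1652 in Ppy-led members, those at least 2 times above both insulin-only and single-hormone barcodes in both libraries made up 0% of the genes for Gcg-led, 0% for Sst-led and 0.0605% for Ppy-led members. Those at 0.5 times or lower of both made up 0.0553%, 0% and 0%. The 1 gene at least 2 times above both was Hspa1b, a heat-shock chaperone, at 66.2 CPM in WT Ppy-led members (12.4 in insulin-only and 5.37 in single-hormone barcodes) and 68.4 in HFD (13.6 and 10.6). Its 45 and 19 UMIs came from 4 of 20 and 5 of 14 barcodes, and a single barcode held 71.1% and 57.9% of them. The 1 gene at 0.5 times or lower of both was 2210010C04Rik, a trypsinogen-like gene of acinar cells, in Gcg-led members, at 7.86 CPM in WT (23.1 and 55.3) and 27.0 in HFD (55.7 and 163).

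Transcripts of cell types outside the endocrine islet were low in members. Endothelial and macrophage barcodes were called by at least 3 marker genes and 5 marker UMIs, and 0 of 60 WT members (up to 5.96%) and 0 of 111 HFD members (up to 3.27%) met either call. Summed endothelial markers were at 7.37 CPM in WT members and 8.50 in HFD, beside 16.4 and 10.6 in insulin-only barcodes. Summed macrophage markers were at 71.5 and 73.7 CPM beside 51.3 and 61.9. Acinar markers summed to 132 and 402 CPM beside 158 and 480, and fibroblast and stellate markers to 3.03 and 1.13 beside 9.34 and 2.91. Ductal markers, of which Krt8, Krt18 and Epcam are also made by endocrine cells, summed to 1026 and 1315 CPM beside 796 and 974. T-cell markers had 3 UMIs in all WT members and 5 in HFD, and B-cell markers 26 and 9.

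Barcodes that paired insulin with an unrelated cell type were counted as well. Insulin barcodes that also met the endothelial call numbered 8 in WT and 16 in HFD, or 4.73 and 10.3 per 100 endothelial barcodes with insulin under 20%. For macrophages there were 7 and 12, or 13.2 and 18.2 per 100. The same count for members was 30.9 and 17.6 per 100 single-hormone barcodes for Gcg, 39.6 and 50 for Sst, 87.0 and 29.8 for Ppy, and 66.7 and 114 for Pyy, the last over 6 and 7 single-hormone barcodes. The calls rest on different thresholds, so these values are given side by side. Insulin barcodes with endothelial transcripts had 1.13 and 1.37 times the insulin-only median of UMIs, and those with macrophage transcripts 1.70 and 1.05 times. Whether a member held 1 cell or more was not tested.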

How the data were processed

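UMI counts per gene and barcode were deposited by the authors as 1 matrix per library, made from 10x 3′ libraries, with Cell Ranger 3.0.2 and mm10 named in the submitters' processing notes; the authors had normalized nothing in them. No doublet caller was applied, and whether doublets had been removed before deposit is not given in the sources used here. Barcodes with at least 500 genes and at most 20% mitochondrial UMIs were kept. Counts were summed over barcodes of a group and library and scaled to all UMIs (CPM). Folds between groups were taken for genes with at least 20 UMIs over both. With 1 library per group, there was no test across samples. Intervals (95%) were exact binomial, Poisson or conditional and cover counting error only. Reads of near-identical gene copies, such as Ins1 and Ins2, could be split between them.

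Genes were named by fixed rules: hormones and lineage factors, the extremes of each marker list, of the class genes and of the ratio to insulin-only barcodes (genes at 100 CPM or more), and genes beyond both references (50 CPM or more). Leading hormones with 10 or more members per library were used, since none had 20 in both, a choice made after the counts were seen. Members and lists were chosen with earlier results of these data known. The libraries held 73843674 UMIs in 3895 WT barcodes and 94375138 in 8951 HFD barcodes. Alternatives covered thresholds, filters, references and scaling. Python 3.11.15, numpy 2.4.6, scipy 1.17.1 and pandas 2.3.3 were used, and the scripts were checked on simulated data. Some genes that the rules would name are not reported here, and the share of barcodes with an α-cell factor was therefore taken over Irx1 and Irx2, after the data had been seen.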

Additional observations from a re-analysis of the deposited data

Results flagged for a closer look

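Against insulin-only barcodes, medians of 3 classes of members lay on opposite sides of 1 in the 2 libraries. The median UMI count of Sst-led members was 1.24 times the insulin-only median in WT and 0.956 times in HFD. The order-statistic interval of the HFD value was 0.839 to 1.17, and it was above 1 under 4 alternatives (1.19, 1.21, 1.08 and 1.14). That of Pyy-led members was 1.60 times in WT (4 barcodes) and 0.986 times in HFD (8 barcodes). The median insulin UMI count of Ppy-led members was 0.877 times the insulin-only median in WT and 1.25 times in HFD, and that of Pyy-led members 1.19 times in WT and 0.798 times in HFD. The difference between the libraries was not tested in any of these cases, since each group is 1 library. Dixon's rule for single outlying samples could not be applied to groups of 1 library.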

How the results depend on the processing

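Of 332 values under alternatives, 75 moved beyond their counting interval or 1.5 times a count and 8 changed direction, and the cause was not tested. The share of members in WT and HFD was 5.15% and 3.04% with a second hormone at 1%, 0.663% and 0.299% at 5%, 4.196% and 2.43% with insulin at 30%, 1.27% and 0.465% at 50%, and 1.34% in HFD with at most 15000 UMIs. At 5%, Gcg led 46.2% and 63.2% of members, Sst 0% and 10.5%, and Ppy 53.8% and 21.1%. With insulin at 50%, Gcg led 47.8% and 48.1%, and Sst 33.3% in HFD. With at most 15000 UMIs, Gcg led 16.7% and 9.26%, Sst 0% and 74.1%, and Ppy 66.7% in WT, and at 1% Gcg led 21.8% in HFD. The UMI ratio of all members became 1.48 and 1.56 with insulin at 50%, 0.667 and 1.12 with at most 15000 UMIs, 1.56 and 1.38 over UMIs other than hormones, and 1.30 in HFD at 1%. Changes of direction in single classes were 0.963 for Gcg-led WT members at 5%, 0.998 for Sst-led WT members with insulin at 30%, 0.636 for Ppy-led WT members with at most 15000 UMIs, and, for Sst-led HFD members, 1.19 at 1%, 1.21 with insulin at 50%, 1.08 with at most 15000 UMIs and 1.14 over other UMIs.

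The median relative level of Gcg class genes was 0.214 and 0.253 at 5%, 0.249 and 0.220 with insulin at 30%, 0.108 in HFD with insulin at 50%, 0.257 and 0.231 when scaled to UMIs other than hormone and mitochondrial genes, and 0.281 and 0.246 with median-of-ratios size factors. For Sst class genes it was 0.336 and 0.326 and then 0.327 and 0.350 under these scalings, 0.135 and 0.104 with insulin at 50%, and in WT 0.178 at 1% and 0.243 with insulin at 30%. For Ppy class genes in WT it was 0.140 with insulin at 50% and 0.0873 with at most 15000 UMIs. Raised α-cell markers of Gcg-led members numbered 8 of 10 in each library with no filter and 3 of 5 with at least 10 UMIs seen or expected, an alternative chosen after seeing the data. Under this last filter 3.56% of all genes in WT and 2.56% in HFD were raised. Raised δ-cell markers of Sst-led members numbered 5 in HFD with no filter and 2 in WT against barcodes with every second hormone under 0.5%. Lowered β-cell markers numbered 2 in HFD Gcg-led and 3 in WT Ppy-led members under both other scalings, and 1 in WT Sst-led members with size factors. With 10 UMIs seen or expected they numbered 0, 0 and 1 in HFD Gcg-led, Sst-led and Ppy-led members, beside 1.07%, 0.46% and 1.13% of all genes. Alternatives at 1000 genes or 10% mitochondrial UMIs moved no value. Class levels had no value for Gcg-led and Sst-led members with at most 15000 UMIs, nor for Sst-led members at 5%, having under 3 members in a library. Both other scalings lowered every ratio to insulin-only barcodes, with log2 shifts from -0.12 (HFD Gcg-led, other UMIs) to -0.39 (WT Sst-led, size factors).

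No paired analysis was possible because each group has 1 library. Leaving out a replicate was not run for the same reason. Several single factors rest on under 10 UMIs.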

Other observations

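Cell-cycle transcripts were concentrated in 1 member. A Gcg-led WT barcode with 47612 UMIs, 51.0% insulin and 3.34% Gcg held all 51 cycling-gene UMIs of the WT members, from 8 of 8 genes. In HFD, 3 members held 6 such UMIs, at most 4 in an Sst-led barcode. Among insulin-only barcodes, 5 of 1901 in WT (0.263%) and 10 of 6233 in HFD (0.160%) had 10 or more.

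Barcodes outside the quality filters also included insulin with a second hormone. Of 1295 removed WT barcodes 120 met the insulin threshold and 3 of these (2.5%) the second-hormone threshold. In HFD these numbers were 1654, 60 and 2 (3.33%).

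The ratio of Ins1 to Ins2 UMIs was lowest in Pyy-led members, at a median of 0.295 in WT (4 barcodes) and 0.285 in HFD (8 barcodes), beside 0.393 and 0.382 in insulin-only barcodes.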
